A study of Homo sapiens with 12 samples.

Results

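The 36 nuclear genes for aminoacyl-tRNA synthetases were followed by RNAseq in SKBR-3, a long-established breast carcinoma line with HER2 amplification. Members were taken by symbol from the 20531 genes listed in each file. The set held 20 cytosolic enzymes and 16 mitochondrial enzymes, whose symbols end in 2 (as in IARS and IARS2). All 36 genes were measured in all 12 libraries, with at least 194 counts in each.

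Cells of every group were transfected with an siRNA pool and then treated for 24 h. A non-targeting (NT) pool or a pool against FOXA1, a pioneer transcription factor, was combined with DMSO or with 300 nM lapatinib, an inhibitor of the HER2 and EGFR kinases. Each of the 4 groups (NT siRNA with DMSO, NT siRNA with lapatinib, FOXA1 siRNA with DMSO, FOXA1 siRNA with lapatinib) had 3 replicates. The labels give 48 h of siRNA before drug, and the study's general methods give 24 h for drug experiments. The comparisons address how lapatinib changed expression, and whether FOXA1 depletion altered that response.

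A synthetase joins an amino acid to its tRNA, the step that supplies charged tRNA to the ribosome. Human cells keep a cytosolic and a mitochondrial set, both encoded in the nucleus. The KARS and GARS genes make enzymes for both compartments, and FARSA and FARSB encode the subunits of a single phenylalanine enzyme. QARS serves the cytosol, whereas mitochondria make their glutamine tRNA by converting glutamate on the tRNA. Part of the cytosolic set is held in a multisynthetase complex, and many cytosolic members are known targets of ATF4, the factor of the amino acid response.

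Totals of expected counts were between 25749578 and 32271850 per library, and members took 0.403% to 0.526% of them. The siRNA target FOXA1 had 8419.6, 8400.5 and 8749 normalized counts (expected counts scaled to a common library size) with NT siRNA and DMSO against 1165, 1370 and 1571 with FOXA1 siRNA. In lapatinib it had 12647, 12024 and 13108 with NT siRNA against 1641, 1892 and 2376 with FOXA1 siRNA. All 7 epithelial markers of the line were detected in every library. Of the hormone receptors, PGR was under 3 counts throughout, and ESR1 was at 13.0 to 15.7 normalized counts with NT siRNA and DMSO, 27.3 to 42.9 with NT siRNA and lapatinib, 12.0 to 16.8 with FOXA1 siRNA and DMSO and 36.7 to 41.3 with both, a rise with lapatinib under each siRNA (log2 fold change 1.24 and 1.49). In the same order of groups, the 5 fibroblast markers summed to 473 to 529, 270.5 to 374, 391 to 513 and 325 to 388 and the 2 endothelial markers to 80.2 to 93.3, 51.1 to 84.2, 44.9 to 51.6 and 43.3 to 75.4, nearly all of it COL1A1 and VWF respectively. The leukocyte marker CD68 had 431 to 701, 817 to 1086, 612 to 811 and 906 to 1251. LUM was at 0 in every library, and COL1A2, COL3A1, DCN, PTPRC and PECAM1 had at most 5.61. Lapatinib lowered COL1A1 (-0.65 with NT siRNA and -0.33 with FOXA1 siRNA) and raised CD68 (0.89 and 0.65). CD68 was 1 of 2 leukocyte markers tested, and lapatinib gave no call for the other under either siRNA. FOXA1 siRNA lowered VWF in DMSO (-0.89) and that other leukocyte marker in both DMSO and lapatinib, with no call for CD68. The part of these markers in the results was not tested. The replicate 2 library of each group stood apart. Its counts differed from those of replicates 1 and 3 with a chi-square of 12.7 to 18.5 per degree of freedom, against 3.75 to 5.94 between replicates 1 and 3. Counts of calls are therefore also given without those 4 libraries. The labels do not say that replicates came from separate cultures, so p-values measure the spread between these samples, which may be technical.

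Levels were compared between genes as TPM, which scales for transcript length, in NT siRNA with DMSO. Cytosolic members spanned a mean of 46.0 (CARS) to 248 TPM (GARS) with a median of 121, and mitochondrial members spanned 8.28 (AARS2) to 219.5 TPM (IARS2) with a median of 24.4. Of the 18 members with the highest level, 16 were cytosolic. GARS, the glycine enzyme of both compartments, had 246, 251 and 248 TPM, above QARS, the glutamine enzyme, with 237, 243 and 237 TPM and without overlap. IARS2, the mitochondrial isoleucine enzyme, came next with 219, 222 and 217 TPM, overlapping KARS, the lysine enzyme, with 217, 207 and 222 TPM. CARS2, the mitochondrial cysteine enzyme, was at 79.5, 67.8 and 80.7 TPM, above its cytosolic counterpart CARS at 42.4, 51.2 and 44.4 TPM. In the order of levels, 17 of 35 neighbouring pairs of members did not overlap in their 3 libraries. The other 18 pairs overlapped, among them the stretch from MARS to RARS, whose means ran from 124 down to 114.5 TPM.

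**Figure D1:**
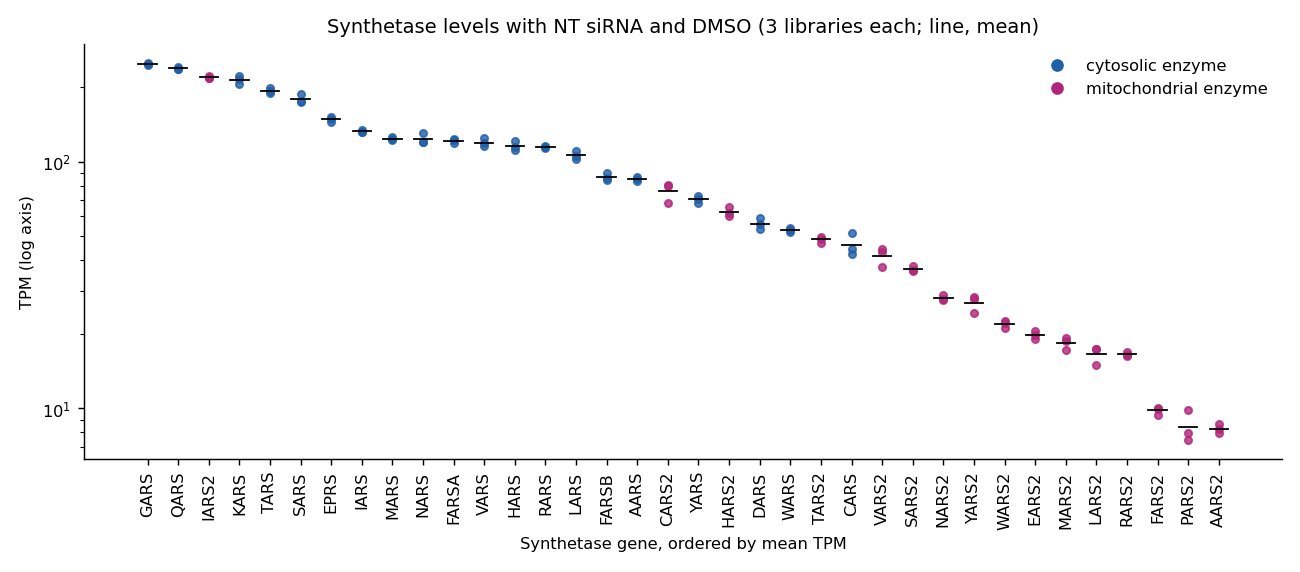
TPM (log axis) of the 36 synthetase genes in the 3 libraries with NT siRNA and DMSO, ordered by mean. Dots are libraries, black lines are means and colour gives the compartment. Blue cytosolic enzymes fill most of the left side from 248 TPM down, with IARS2 at 219.5 TPM the mitochondrial exception, and the right end is mitochondrial.

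The promoter windows of the members were searched for 3 motifs on both strands, since ATF4 and FOXA1 act through known DNA elements. RefSeq windows of GRCh38.p14, from 250 bases before to 50 bases after a start site, matched 30 of the 36 genes. DARS, LARS, VARS, YARS, AARS2 and VARS2 are the other 6. The start site is that of the transcript behind the window, which was the first base of the gene in 26 of the 30. It lay 25 bases inside the gene for EARS2, 269 for TARS, 7007 for CARS2 and 11073 for FARS2. The C/EBP-ATF response element (TGATG, any base, then AA) was found in 6 of 16 cytosolic windows (37.5%) and in 1 of 14 mitochondrial windows (7.14%), against 3.62% of the 35116 windows in the table. The forkhead motif TGTTTAC was in none of the 30 windows and in 3.42% of all windows. It is the A form of the study's motif GT(A/C)AACA read on the other strand, and the C form was not searched. Enhancers and introns outside the windows, where the study also places FOXA1 binding, were not searched, so FOXA1 sites elsewhere at these genes were not tested. The E-box CACGTG was in 1 cytosolic window (6.25%), that of IARS, and in 3 mitochondrial windows (21.4%), against 7.26% of all windows. These motifs do not overlap each other in any member window, and a match is a description of the sequence only. The shares of all windows were taken over every window, with no limit to genes expressed in these cells, whereas all members were expressed.

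The 7 windows with a C/EBP-ATF element are shown 5′ to 3′ on the strand of the gene, as 130 bases with the element in capitals, because it was found in a larger share of cytosolic than of mitochondrial windows. Counting the first base of the window's transcript as 1, the element ran from -187 to -180 in AARS, from -2 to 6 in CARS, from -13 to -6 in IARS and from -4 to 4 in MARS. It ran from 15 to 22 in NARS, from 3 to 10 in TARS and from -197 to -190 in YARS2. On the minus strand lie AARS (chr16:70289607-70289736), CARS (chr11:3057394-3057523), IARS (chr9:92293668-92293797), NARS (chr18:57621807-57621936) and YARS2 (chr12:32755998-32756127). On the plus strand lie MARS (chr12:57487968-57488097) and TARS (chr5:33440865-33440994).
AARS: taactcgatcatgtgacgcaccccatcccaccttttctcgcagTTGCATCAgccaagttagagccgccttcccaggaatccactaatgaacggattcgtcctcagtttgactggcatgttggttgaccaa
CARS: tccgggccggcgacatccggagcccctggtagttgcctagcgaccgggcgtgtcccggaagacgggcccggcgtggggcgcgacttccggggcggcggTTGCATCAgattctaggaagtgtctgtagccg
IARS: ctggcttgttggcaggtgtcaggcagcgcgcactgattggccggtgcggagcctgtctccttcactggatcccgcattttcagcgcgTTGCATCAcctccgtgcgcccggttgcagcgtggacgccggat
MARS: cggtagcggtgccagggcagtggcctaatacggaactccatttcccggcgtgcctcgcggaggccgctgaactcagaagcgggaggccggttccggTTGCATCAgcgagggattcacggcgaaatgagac
NARS: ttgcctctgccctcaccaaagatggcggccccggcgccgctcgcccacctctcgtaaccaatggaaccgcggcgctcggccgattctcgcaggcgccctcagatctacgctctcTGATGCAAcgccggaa
TARS: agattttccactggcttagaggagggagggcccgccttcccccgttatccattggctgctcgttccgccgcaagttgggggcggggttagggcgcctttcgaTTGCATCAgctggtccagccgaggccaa
YARS2: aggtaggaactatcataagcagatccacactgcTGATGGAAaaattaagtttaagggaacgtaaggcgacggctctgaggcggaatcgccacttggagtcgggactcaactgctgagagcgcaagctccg
The same 8 letters in the same orientation, TTGCATCA, stood in AARS, CARS, IARS, MARS and TARS, NARS carried their reverse complement, and YARS2 differed from NARS at the free base.

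Of the 3 mitochondrial windows with an E-box, those of EARS2 (chr16:23557321-23557450, minus strand) and MARS2 (chr2:197705269-197705398, plus strand) are shown in the same way, with the E-box in capitals. The CARS2 window, which lies well inside the gene, is left out.
EARS2: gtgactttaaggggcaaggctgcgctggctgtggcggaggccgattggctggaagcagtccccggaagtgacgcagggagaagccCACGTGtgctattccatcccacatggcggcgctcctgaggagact
MARS2: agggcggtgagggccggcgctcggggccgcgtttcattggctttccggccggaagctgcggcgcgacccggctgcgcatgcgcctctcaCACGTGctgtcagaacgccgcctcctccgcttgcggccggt
HARS, the cytosolic histidine enzyme (chr5:140673905-140691370, minus strand), and HARS2, its mitochondrial counterpart (chr5:140691455-140699305, plus strand), lie head to head. The 84 bases between their start sites (chr5:140691371-140691454, plus strand) are shown because both genes start from this stretch. The strand setting of the counting was not stated, so reads from genes that overlap on opposite strands cannot be told apart.
HARS to HARS2: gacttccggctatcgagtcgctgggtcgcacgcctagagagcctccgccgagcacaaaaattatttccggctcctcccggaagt

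Lapatinib with NT siRNA lowered 11 of the 20 cytosolic synthetases and raised 5, and it lowered 6 of the 16 mitochondrial enzymes and raised 1. Genes were called with edgeR's quasi-likelihood test at a Benjamini-Hochberg adjusted p under 0.05, which called 29.2% of all 13713 genes tested lower and 30.5% higher. The test held no term for the replicate number. The groups did not overlap in normalized counts for 27 of the 36 members and for 66.1% of all genes tested. A lack of overlap was therefore common and does not set a gene apart. The median log2 fold change was -0.20 for cytosolic and -0.05 for mitochondrial members, against 0.03 for all genes. The largest falls were in the valine enzyme VARS, the phenylalanine subunit FARSB and the mitochondrial cysteine enzyme CARS2, and the largest rise was in CARS. Of the 8 members of the multisynthetase complex, 5 fell and 3 rose, and of the 12 free cytosolic enzymes 6 fell and 2 rose. Class I and class II enzymes, which differ in the fold of the catalytic domain, gave 6 and 5 falls and 3 and 2 rises among 10 each. EPRS, whose glutamate and proline enzymes belong to different classes, was counted in class I, where it is among the rises. Without the replicate 2 libraries, cytosolic members gave 13 falls and 5 rises and mitochondrial members gave 7 falls and 2 rises, and no call was lost. With a log2 fold change of at least 1 as a further requirement, 2 members were lower (VARS and FARSB, against 7.13% of genes) and 0 higher (6.64%). In bulk RNA, fewer cells that express a gene and less of its RNA per cell cannot be told apart.

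Among free cytosolic enzymes, VARS (chr6:31777518-31795752) had 8574, 7847 and 7941 normalized counts in DMSO and 4026, 3463 and 3749 in lapatinib. VARS fell by 52.8% (log2 fold change -1.08 ± 0.067, adjusted p = 6.81e-06), with every lapatinib library below every DMSO library. FARSB (chr2:222566899-222656092), the beta subunit of the phenylalanine enzyme, had 3129.6, 3163 and 2977 in DMSO and 1527, 1378 and 1401 in lapatinib. FARSB fell by 52.5% (log2 fold change -1.07 ± 0.061, adjusted p = 4.78e-06), again without overlap. Its partner subunit FARSA (chr19:12922479-12933711) had 3656, 3504 and 3468 in DMSO and 2219, 2049.8 and 2183 in lapatinib. FARSA fell by 37.9% (log2 fold change -0.69 ± 0.054, adjusted p = 1.82e-05), so both subunits were low in all 3 lapatinib libraries. HARS had 3502, 3667 and 3544 in DMSO and 2252, 2236 and 2196 in lapatinib. HARS fell by 36.1% (log2 fold change -0.65 ± 0.048, adjusted p = 1.42e-05) without overlap. TARS, the threonine enzyme, fell by 15.3% and WARS, the tryptophan enzyme, fell by 16.1%, with adjusted p of 0.00503 and 0.0111.

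In the multisynthetase complex, IARS, the isoleucine enzyme, had 9372, 8968 and 9319.7 normalized counts in DMSO and 5436, 5235 and 5177 in lapatinib. IARS fell by 41.4% (log2 fold change -0.77 ± 0.046, adjusted p = 6e-06), with the groups far apart. MARS, the methionine enzyme that also charges the initiator tRNA, had 5545, 5276 and 5291 in DMSO and 3626, 4105 and 3561 in lapatinib. MARS fell by 28.3% (log2 fold change -0.48 ± 0.065, adjusted p = 0.00031), its replicate 2 being the highest lapatinib library and still below DMSO. KARS had 7094, 6542 and 7112 in DMSO and 5378, 5177 and 5312 in lapatinib. KARS fell by 21.7% (log2 fold change -0.35 ± 0.051, adjusted p = 0.000438) without overlap. RARS, the arginine enzyme, had 3971, 3761 and 3868 in DMSO and 3378, 3071 and 3222 in lapatinib. RARS fell by 14.7% (log2 fold change -0.23 ± 0.054, adjusted p = 0.00629), and LARS, the leucine enzyme, which also senses leucine for mTORC1, fell by 11.3% (log2 fold change -0.17 ± 0.047, adjusted p = 0.0124). LARS had 8152, 8509 and 8214 in DMSO and 7039, 7452 and 7071 in lapatinib, low in all 3 lapatinib libraries.

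The other 3 members of the complex rose. DARS, the aspartate enzyme, had 2096, 2134 and 1958 normalized counts in DMSO and 2564, 2571 and 2379 in lapatinib. DARS rose by 24.3% (log2 fold change 0.31 ± 0.060, adjusted p = 0.00212), every lapatinib library being above DMSO. QARS had 8194, 8369 and 7986 in DMSO and 9773, 9173 and 10008 in lapatinib. QARS rose by 20.7% (log2 fold change 0.27 ± 0.050, adjusted p = 0.00172) without overlap. EPRS, which carries the glutamate and the proline enzyme in a single protein, had 12265, 11492 and 12251 in DMSO and 14068, 13719.6 and 13468 in lapatinib. EPRS rose by 17.3% (log2 fold change 0.23 ± 0.046, adjusted p = 0.00284), also without overlap.

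Of the free enzymes, SARS and CARS rose. SARS, which charges serine and also the selenocysteine tRNA, had 5123, 5238 and 4922 normalized counts in DMSO and 5683, 5609 and 5946 in lapatinib. SARS rose by 15.4% (log2 fold change 0.21 ± 0.049, adjusted p = 0.00657), with no overlap. CARS had 1744, 1986 and 1785 in DMSO and 2269, 2759.8 and 2179 in lapatinib. CARS rose by 33.8% (log2 fold change 0.42 ± 0.098, adjusted p = 0.00587), with replicate 2 the highest library in both groups. AARS, the alanine enzyme, was the cytosolic member called in none of the 4 comparisons without a replicate block. With the block it was called lower with FOXA1 siRNA in DMSO (adjusted p = 0.0157) and in lapatinib (2.87e-05). AARS had 4428, 4345 and 4449.8 in DMSO and 4730.4, 5649 and 4304 in lapatinib. AARS replicate 2 in lapatinib was high and replicate 3 lay below DMSO, so the groups overlapped (log2 fold change 0.19 ± 0.092, adjusted p = 0.114). CHAC1, a glutathione-degrading ATF4 target, was likewise highest in replicate 2, with 345, 727 and 314 in lapatinib against 95.3, 151 and 108 in DMSO, and its part in these values was not tested. CHAC1 is a single gene picked from the 20 of the amino acid response list, and the replicate pattern of the others is not given. GARS had 10971, 10821 and 10824 in DMSO and 10036, 10318 and 9200.1 in lapatinib and was not called (log2 fold change -0.11 ± 0.053, adjusted p = 0.111), although the groups did not overlap. Without NT lapatinib replicate 2, GARS was called lower (-0.14, adjusted p = 0.0464), and without NT lapatinib replicate 3, AARS was called higher (0.27, adjusted p = 0.0252). NARS and YARS were the other 2 cytosolic members not called, at 0.07 and -0.07 log2.

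Among mitochondrial enzymes, CARS2 (chr13:110641410-110713522) had 2372, 1954 and 2356 normalized counts in DMSO and 1210.2, 1020.5 and 1191 in lapatinib. CARS2 fell by 47.6% (log2 fold change -0.93 ± 0.097, adjusted p = 7.33e-05), while CARS rose. LARS2, the mitochondrial leucine enzyme, had 1191, 987 and 1158 in DMSO and 733, 588 and 714 in lapatinib. LARS2 fell by 37.6% (log2 fold change -0.68 ± 0.11, adjusted p = 0.000757), with replicate 2 the lowest library in each group. MARS2, which charges the mitochondrial methionine tRNA, had 847, 922 and 907 in DMSO and 607, 512 and 571 in lapatinib. MARS2 fell by 35.4% (log2 fold change -0.63 ± 0.084, adjusted p = 0.000289) without overlap. YARS2, the mitochondrial tyrosine enzyme, had 989, 818 and 948 in DMSO and 644, 540.2 and 586 in lapatinib. YARS2 fell by 34.3% (log2 fold change -0.61 ± 0.099, adjusted p = 0.000889), also without overlap. AARS2 fell by 31.6% (adjusted p = 0.00632).

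EARS2, the mitochondrial glutamate enzyme that also acylates the glutamine tRNA for conversion, had 1258, 1171 and 1265 normalized counts in DMSO and 1054, 910.5 and 1065 in lapatinib. EARS2 fell by 16.1% (log2 fold change -0.25 ± 0.078, adjusted p = 0.0215), but the call was lost without NT DMSO replicate 1 (adjusted p = 0.0718) or replicate 3 (adjusted p = 0.0562). WARS2, the mitochondrial tryptophan enzyme, was the member of this set that rose, with 1019, 908 and 972 in DMSO and 1165, 1074 and 1148 in lapatinib. WARS2 rose by 19.5% (log2 fold change 0.26 ± 0.070, adjusted p = 0.0122), a call lost without NT DMSO replicate 3 (adjusted p = 0.0518). HARS2 had 2160.4, 2264 and 2201 in DMSO and 2149.9, 1855 and 2169 in lapatinib, overlapping groups, and was not called (log2 fold change -0.07 ± 0.070, adjusted p = 0.423). Its neighbour HARS fell, so the genes on either side of the shared 84 bases gave different calls. Their TPM ratio is compared with the other pairs further below. NARS2, PARS2 and the other 6 mitochondrial members were also not called, between -0.15 and 0.24 log2. IARS2 had 10797, 10829.7 and 10579 in DMSO and 10649.7, 10309 and 10499 in lapatinib and was among them (log2 fold change -0.00 ± 0.042, adjusted p = 0.994).

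**Figure D2:**
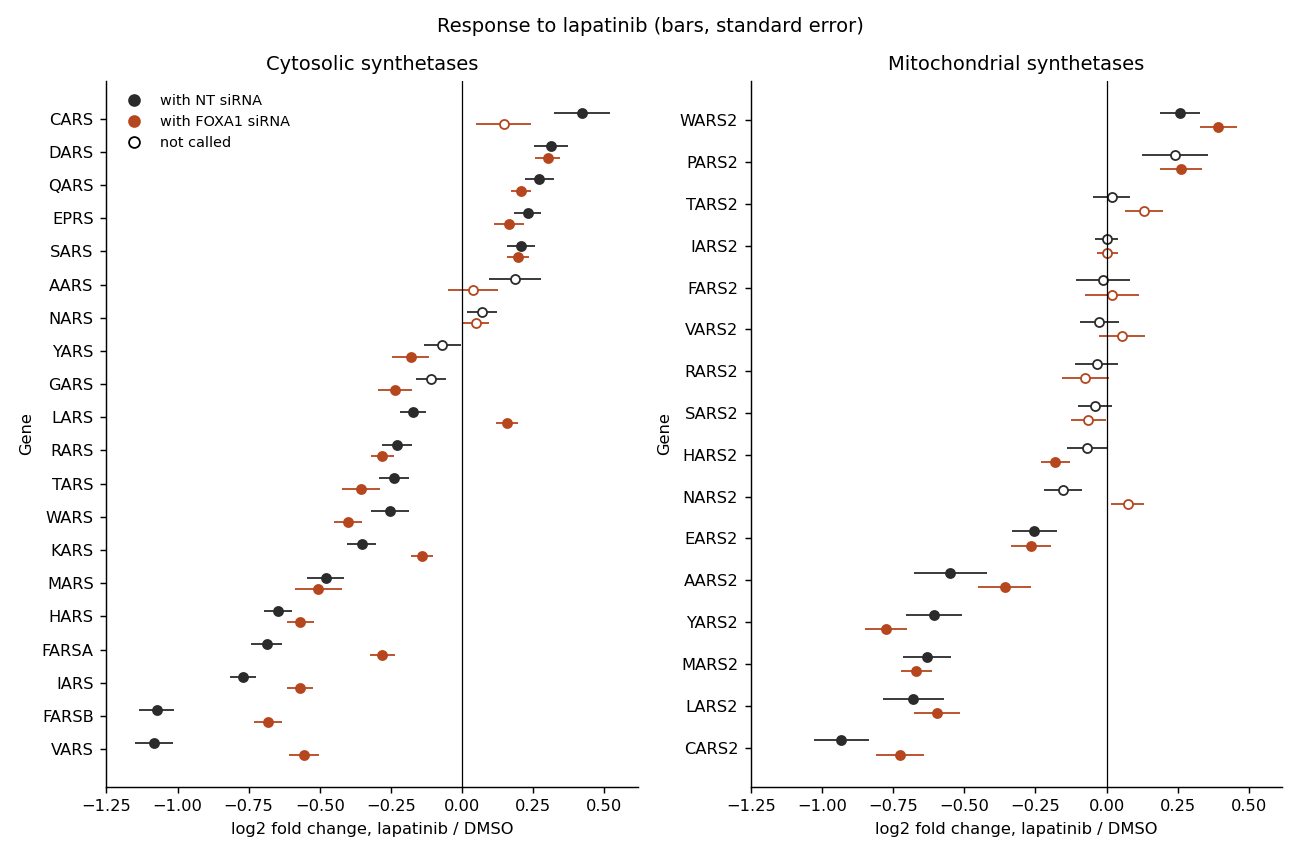
Log2 fold change of lapatinib over DMSO for 20 cytosolic (left) and 16 mitochondrial (right) synthetases, with NT siRNA (black) and FOXA1 siRNA (red). Bars are standard errors, filled dots are calls at an adjusted p under 0.05, and open dots were not called. Points run from -1.08 (VARS) to 0.42 (CARS) with NT siRNA, and the black and red dots part most for VARS, FARSA, FARSB and LARS.

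Of the 7 genes whose windows held a C/EBP-ATF element, CARS rose, IARS, MARS, TARS and YARS2 fell, and AARS and NARS were not called with lapatinib under NT siRNA. These calls describe the 7 genes only, beside 29.2% of all genes lower and 30.5% higher.

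With FOXA1 siRNA, lapatinib lowered 12 of 20 cytosolic members and raised 5, and it lowered 7 of 16 mitochondrial members and raised 2. Of the 13745 genes tested here, 29.1% were lower and 29.0% higher. The groups did not overlap for 26 of the 36 members and for 65.1% of these genes. Medians were -0.21 for cytosolic and -0.07 for mitochondrial members, against 0.01 for all genes. Between both siRNA conditions, which share no samples, 16 members were lower in each (10 cytosolic, 6 mitochondrial) and 5 were higher in each (DARS, EPRS, QARS, SARS and WARS2). Of the 13446 genes tested in both, 24.1% were lower and 23.6% higher in each. LARS was called in opposite directions. No member reached a log2 fold change of 1 here, against 5.12% of genes lower and 4.93% higher by that size. Leaving out the replicate 2 libraries gave 12 falls and 5 rises for cytosolic and 7 falls and 3 rises for mitochondrial members.

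Whether the lapatinib response itself differed was tested with an interaction term over all 12 libraries. It was positive for 5 of 20 cytosolic members, FARSA, FARSB, KARS, LARS and VARS, against 3.99% of 14012 genes. It was negative for 0 of 20 cytosolic members, against 3.20% of genes (0 at an unadjusted p under 0.05 and 0 with DESeq2), and for 0 of 16 mitochondrial members (0 and 0). A positive interaction was called for 0 mitochondrial members, with 1 at an unadjusted p under 0.05 and 0 with DESeq2. With the replicate number as a block, 1 cytosolic member was negative (CARS, adjusted p = 0.0124) and 2 mitochondrial members were positive (CARS2, 0.0159, and NARS2, 0.019). IARS missed the threshold without the block (interaction 0.21 ± 0.061, adjusted p = 0.0539) and passed it with the block (adjusted p = 0.00529) and with DESeq2 (adjusted p = 0.0194). Without the replicate 2 libraries the interaction was positive for 6 cytosolic members, IARS being added (adjusted p = 0.0347), and for 1 mitochondrial member.

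VARS with FOXA1 siRNA had 8647, 8242 and 8111 normalized counts in DMSO and 5983, 5330.2 and 5518 in lapatinib, so DMSO levels were close to those with NT siRNA and lapatinib levels were higher. VARS fell by 31.9% (adjusted p = 5.69e-05), and the log2 response was higher by 0.54 ± 0.087, adjusted p = 0.00396. FARSA had 2874, 2931 and 2870 in DMSO and 2277, 2408 and 2378 in lapatinib. FARSA fell by 17.7% (adjusted p = 0.000772), with an interaction of 0.42 ± 0.062, adjusted p = 0.00269. FARSB had 3896, 3868 and 3807 in DMSO and 2485, 2417 and 2233 in lapatinib. FARSB fell by 37.7% (adjusted p = 1.63e-05), with an interaction of 0.40 ± 0.072, adjusted p = 0.00695. The subunits thus had interactions of nearly the same size from different DMSO levels, FARSA being lower and FARSB higher with FOXA1 siRNA.

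After FOXA1 depletion LARS (chr5:146113034-146182650) had 9269, 9842 and 9655 normalized counts in DMSO and 10494, 10802 and 10464 in lapatinib. LARS rose by 11.6% (adjusted p = 0.00768), and its interaction was 0.34 ± 0.055, adjusted p = 0.00381. KARS had 7335, 7082 and 7452 in DMSO and 6493, 6617 and 6498 in lapatinib. KARS fell by 9.35% (adjusted p = 0.0138) and had an interaction of 0.23 ± 0.061, adjusted p = 0.0453. That call was kept in 1 of 12 fits that each left out 1 library, the fit without NT DMSO replicate 2, and the adjusted p rose to between 0.0727 and 0.114 in the other 11. For FARSA, FARSB, LARS and VARS the call was kept in all 12. The KARS fall with FOXA1 siRNA was itself lost without FOXA1 DMSO replicate 3 (0.0606) or FOXA1 lapatinib replicate 3 (0.0511).

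**Figure D3:**
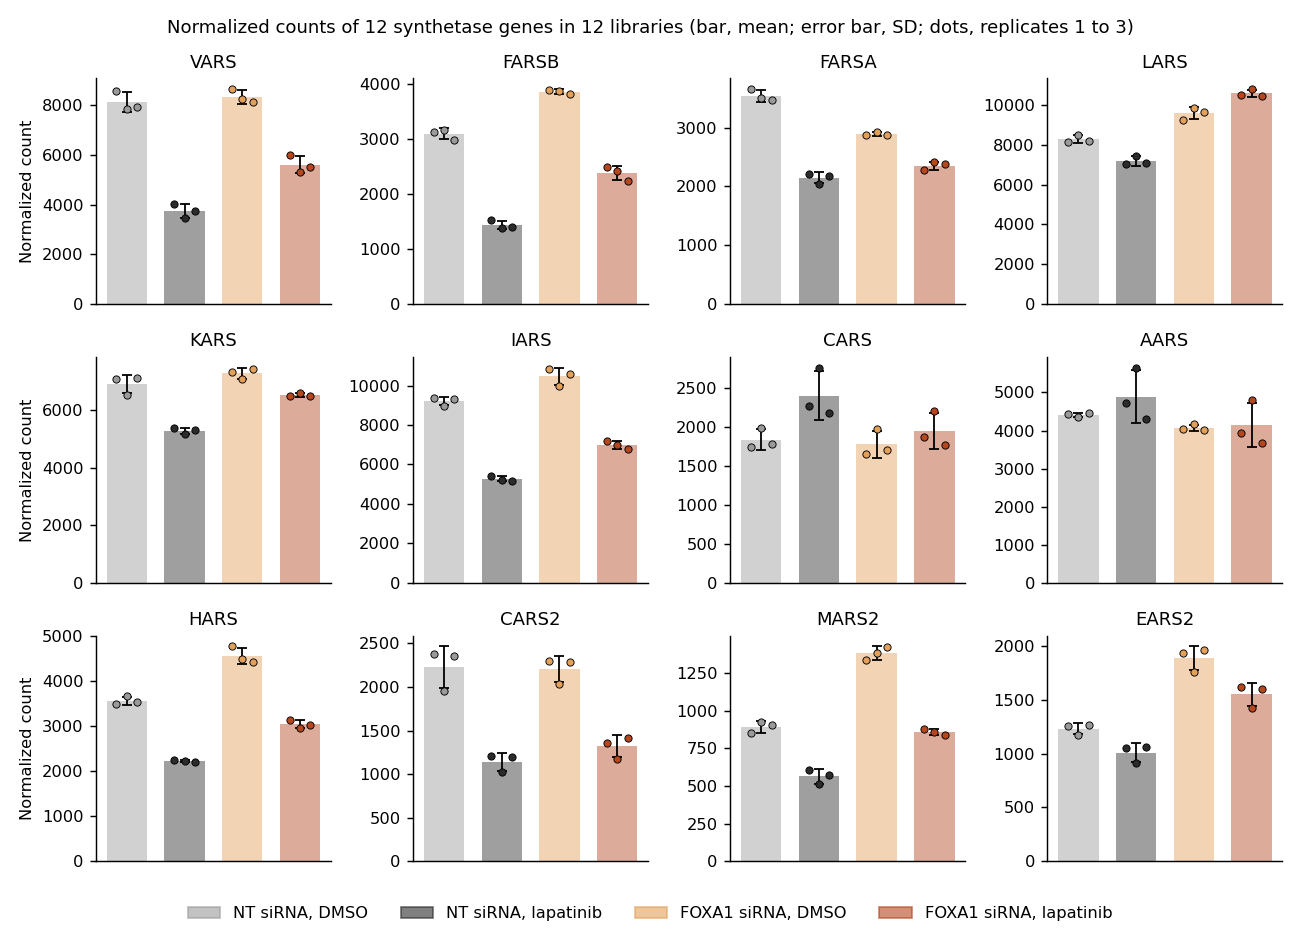
Normalized counts of 12 synthetase genes in the 12 libraries, with bars from 0 for group means, error bars for SD (n = 3) and dots for replicates 1 to 3 from left to right. VARS reads 3463 to 4026 in NT lapatinib and 5330 to 5983 in FOXA1 lapatinib, LARS falls in one siRNA condition and rises in the other, and the middle dot (replicate 2) is the highest for CARS in every group.

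Other members responded to lapatinib with FOXA1 siRNA as follows. HARS had 4776, 4499 and 4439 normalized counts in DMSO and 3141, 2966 and 3033 in lapatinib. HARS fell by 32.6% (adjusted p = 2.9e-05) without overlap. IARS had 10822, 10002 and 10614 in DMSO and 7195, 6969.9 and 6786 in lapatinib. IARS fell by 32.6% (adjusted p = 2.5e-05), and MARS fell by 29.5% (adjusted p = 0.000896). MARS had 4525, 4626 and 4589 in DMSO and 3123, 3627 and 2827 in lapatinib, replicate 2 again being the highest. RARS had 3645, 3527 and 3557 in DMSO and 2937, 2921 and 2874 in lapatinib. RARS fell by 17.7% (adjusted p = 0.000493), and GARS fell by 15.1% (adjusted p = 0.00877). GARS had 13114, 12483 and 12788 in DMSO and 10816, 11583 and 9838 in lapatinib without overlap. TARS fell by 21.8%, WARS fell by 24.3% and YARS, the tyrosine enzyme, fell by 11.8% (adjusted p = 0.00203, 0.000235 and 0.0403). The YARS call was kept in 1 of 6 fits that left out 1 library, the fit without FOXA1 lapatinib replicate 2.

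Rises with FOXA1 siRNA were found for DARS, QARS, SARS and EPRS. DARS had 2611, 2519 and 2476 normalized counts in DMSO and 3143, 3109 and 3013 in lapatinib. DARS rose by 23.2% (adjusted p = 0.000557) and did not overlap. QARS had 8018, 8115 and 7949.5 in DMSO and 8966, 9270.2 and 9261 in lapatinib, and SARS had 5407, 5590.3 and 5431 and 6096, 6188 and 6331. QARS rose by 15.4% and SARS rose by 14.6% (adjusted p = 0.00143 and 0.00257), both without overlap. EPRS had 11754, 10721 and 12157 in DMSO and 13054, 12554 and 12806 in lapatinib. EPRS rose by 12.1% (adjusted p = 0.026), a call lost without FOXA1 DMSO replicate 2 (0.0520) or FOXA1 lapatinib replicate 1 (0.0567). CARS had 1652, 1976 and 1708 in DMSO and 1868, 2209.7 and 1764 in lapatinib, overlapping groups with replicate 2 highest in both. CARS was not called (log2 fold change 0.15 ± 0.096, adjusted p = 0.223), although it was with the replicate block (adjusted p = 0.0122), as was TARS2 (0.0312).

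The mitochondrial members that fell with NT siRNA also fell with FOXA1 siRNA. CARS2 had 2301, 2031 and 2281 normalized counts in DMSO and 1362, 1176 and 1419 in lapatinib, and YARS2 had 962, 857 and 934 and 559.8, 518 and 513. CARS2 fell by 39.5% and YARS2 fell by 41.6% (adjusted p = 0.000153 and 5.31e-05), without overlap. MARS2 had 1333, 1382 and 1424 in DMSO and 879, 855 and 841 in lapatinib, and LARS2 had 1298, 1099.5 and 1240 and 839.7, 747 and 794. MARS2 changed by -0.67 log2 and LARS2 by -0.60 (adjusted p = 2.51e-05 and 0.000337). EARS2 had 1934, 1756 and 1963 in DMSO and 1624, 1425 and 1602 in lapatinib. EARS2 fell by 16.8% (adjusted p = 0.0117), and all 3 lapatinib libraries were below DMSO. HARS2 had 2298, 2293 and 2168 in DMSO and 2042, 1889 and 1970.1 in lapatinib. HARS2 fell by 11.7% (adjusted p = 0.0154), a call lost without FOXA1 DMSO replicate 1 (0.0589), FOXA1 lapatinib replicate 2 (0.0569) or FOXA1 lapatinib replicate 3 (0.0544).

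WARS2 and PARS2 rose here. After FOXA1 depletion WARS2 had 995, 924 and 1009.6 normalized counts in DMSO and 1323, 1290.2 and 1191 in lapatinib. WARS2 rose by 31.3% (adjusted p = 0.00101) without overlap. PARS2, the mitochondrial proline enzyme, had 381, 399.6 and 401 in DMSO and 452, 467 and 481 in lapatinib. PARS2 rose by 19.8% (adjusted p = 0.0147), a call lost without FOXA1 DMSO replicate 1 (0.0595). With NT siRNA its counts were 301, 361 and 276 and 367, 348 and 368, overlapping groups that were not called. Without NT DMSO replicate 2 that comparison was called (0.33, adjusted p = 0.0180). NARS2, the mitochondrial asparagine enzyme, had 1030.1, 983 and 978 and 857, 848 and 923 with NT siRNA and 1487, 1403 and 1500 and 1580.2, 1452 and 1536 with FOXA1 siRNA, with no call for lapatinib in either. With NT siRNA it was called lower when NT DMSO replicate 2 was left out (-0.19, adjusted p = 0.0487). The same call was made without the replicate 2 libraries (-0.16, adjusted p = 0.0486) and in the single model of all 12 samples (-0.17). FARS2, RARS2, SARS2 and VARS2 were called in none of the 4 comparisons.

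FOXA1 siRNA in DMSO raised 9 of 20 cytosolic members and lowered 2, and it raised 6 of 16 mitochondrial members and lowered 0. Among 13694 genes, 21.9% were higher and 21.3% lower. The count of 0 was the same at an unadjusted p under 0.05 and with DESeq2. Medians were 0.10 for cytosolic and 0.06 for mitochondrial members, against -0.01 for all genes. The groups did not overlap for 20 of the 36 members and for 54.2% of all genes tested, nearly the same share. The largest rises were in MARS2, EARS2, NARS2, IARS2 and NARS. With the replicate block, 4 cytosolic members were lower, AARS (adjusted p = 0.0157) and RARS (0.0137) being added to FARSA and MARS, and KARS (0.025) and SARS (0.0074) were called higher. Leaving out the replicate 2 libraries gave 10 higher and 4 lower cytosolic members, and 6 higher and 0 lower mitochondrial members. No member reached a log2 fold change of 1, against 4.06% of genes higher and 2.77% lower by that size. This comparison shares its NT DMSO libraries with the lapatinib comparison in NT siRNA.

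Of the cytosolic members, NARS, the asparagine enzyme, had 5503, 5801 and 5441 normalized counts with NT siRNA and 7906, 7488 and 7956 with FOXA1 siRNA. NARS rose by 40.3% (log2 fold change 0.49 ± 0.044, adjusted p = 0.000109), and the groups were well apart. HARS rose by 28.8% (log2 fold change 0.37 ± 0.044, adjusted p = 0.000456), FOXA1 siRNA libraries being above NT in all 3 cases, while HARS2 was not called (log2 fold change 0.04 ± 0.047, adjusted p = 0.553). FARSB rose by 25.6% (log2 fold change 0.33 ± 0.042, adjusted p = 0.000604), whereas FARSA fell by 17.9% (log2 fold change -0.28 ± 0.042, adjusted p = 0.00121), both without overlap. DARS rose by 23.7% (log2 fold change 0.31 ± 0.051, adjusted p = 0.00206) and GARS rose by 18.4% (log2 fold change 0.24 ± 0.035, adjusted p = 0.000968). MARS fell by 14.2% (log2 fold change -0.22 ± 0.040, adjusted p = 0.00303), with every FOXA1 siRNA library below NT. LARS rose by 16.4% and IARS rose by 14.4% (adjusted p = 0.00356 and 0.00721). WARS rose by 15.1% (adjusted p = 0.0121), lost without FOXA1 DMSO replicate 3 (0.0501). YARS rose by 10.1% (adjusted p = 0.0437), a call kept in 1 of 6 fits that left out 1 library, the fit without NT DMSO replicate 2.

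Of the mitochondrial members, MARS2 rose by 55.6% (log2 fold change 0.64 ± 0.060, adjusted p = 0.000136) and EARS2 rose by 54.0% (log2 fold change 0.62 ± 0.062, adjusted p = 0.000189). In both genes the lowest FOXA1 siRNA library was above the highest NT library. NARS2 rose by 47.7% (log2 fold change 0.56 ± 0.055, adjusted p = 0.000167), also without overlap. IARS2 (chr1:220094132-220148041) had 15705, 15238 and 15346 normalized counts and rose by 44.6% (log2 fold change 0.53 ± 0.033, adjusted p = 2.19e-05). EPRS (chr1:219968600-220046505), which lies near IARS2 on chromosome 1, was not called (log2 fold change -0.05 ± 0.054, adjusted p = 0.512). PARS2 rose by 26.8% (log2 fold change 0.34 ± 0.11, adjusted p = 0.0372), and TARS2, the mitochondrial threonine enzyme, rose by 11.1% (log2 fold change 0.15 ± 0.050, adjusted p = 0.0394). Each of these last calls was kept in 1 of 6 fits that left out 1 library, PARS2 without NT DMSO replicate 2 and TARS2 without FOXA1 DMSO replicate 2. LARS2 was not called (adjusted p = 0.272) except with the replicate block (0.0222).

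FOXA1 siRNA in lapatinib raised 8 of 20 cytosolic members and lowered 3, and it raised 6 of 16 mitochondrial members and lowered 0. Of 13727 genes, 22.7% were higher and 22.2% lower. The groups did not overlap for 20 of the 36 members and for 55.5% of these genes, nearly the same share. No mitochondrial member was lower at an unadjusted p under 0.05 or with DESeq2, and 1 was with the replicate block (YARS2, adjusted p = 0.0307). Medians were 0.10 for cytosolic and 0.20 for mitochondrial members, against -0.01 for all genes. With the block, 7 cytosolic members were lower, AARS (2.87e-05), MARS (0.000103), TARS (0.00225) and QARS (0.0417) being added to CARS, EPRS and RARS, and 10 mitochondrial members were higher, AARS2 (0.0133), CARS2 (0.00288), LARS2 (0.00647) and WARS2 (0.0217) being added. FARSA (0.0361), GARS (0.00878) and SARS (0.0191) were called higher with the block as well. Without the replicate 2 libraries, 8 cytosolic members were higher and 6 lower, and 7 mitochondrial members were higher. DARS, FARSB, HARS, IARS, LARS, NARS, EARS2, IARS2, MARS2, NARS2, PARS2 and TARS2 were the 12 members raised by FOXA1 siRNA in both DMSO and lapatinib, against 15.4% of the 13409 genes tested in both. Again no member reached a log2 fold change of 1 (4.51% of genes higher and 3.90% lower).

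NARS2 rose by 72.0% (log2 fold change 0.78 ± 0.062, adjusted p = 4.43e-05) and FARSB rose by 63.9% (log2 fold change 0.71 ± 0.064, adjusted p = 7.85e-05), with no overlap in either. VARS rose by 48.2% (log2 fold change 0.57 ± 0.069, adjusted p = 0.000344), although it was not called in DMSO, and the interaction above is the test of that difference. LARS rose by 45.7% (log2 fold change 0.54 ± 0.043, adjusted p = 4.43e-05) and HARS rose by 35.2% (log2 fold change 0.44 ± 0.046, adjusted p = 0.000174). NARS had 5982, 5695 and 5505 normalized counts with NT siRNA and 8264, 7664 and 7964 with FOXA1 siRNA in lapatinib. NARS rose by 37.5% (log2 fold change 0.46 ± 0.051, adjusted p = 0.000227), about as in DMSO, and EARS2 rose by 51.9% and MARS2 by a log2 fold change of 0.59 (adjusted p = 0.000638 and 0.000496). KARS rose by 22.2% (log2 fold change 0.29 ± 0.041, adjusted p = 0.000738), every FOXA1 siRNA library being above NT. The other members raised were IARS (0.39 log2), DARS (0.29), IARS2 (0.53), PARS2 (0.35) and TARS2 (0.26), with adjusted p of 0.000276, 0.00242, 3.84e-05, 0.00576 and 0.0255. TARS2 kept its call in 2 of 6 fits that left out 1 library, those without NT lapatinib replicate 3 or FOXA1 lapatinib replicate 2.

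CARS, EPRS and RARS were lower with FOXA1 siRNA in lapatinib. CARS fell by 19.9% (log2 fold change -0.32 ± 0.11, adjusted p = 0.0456), but its groups overlapped because replicate 2 with FOXA1 siRNA exceeded replicate 3 with NT siRNA. The call was kept in 2 of 6 fits that left out 1 library. EPRS fell by 7.91% (log2 fold change -0.12 ± 0.041, adjusted p = 0.0451) and kept the call in 0 of 6 such fits. RARS fell by 10.7% (log2 fold change -0.16 ± 0.050, adjusted p = 0.0287) and kept it in 2 of 6. The fits that kept CARS were those without NT lapatinib replicate 3 and without FOXA1 lapatinib replicate 2, and RARS was kept without either replicate 2 library. MARS was not called (adjusted p = 0.0594) but was called without FOXA1 lapatinib replicate 2 (-0.36, adjusted p = 0.0116) and with DESeq2 (adjusted p = 0.0381). DESeq2 did not call EPRS (adjusted p = 0.0559). The EPRS call was also lost with the other normalizations, with no filter, in the single model of all 12 samples and without the replicate 2 libraries. CARS lost its call with upper-quartile normalization and with at least 10 counts required in every sample.

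**Figure D4:**
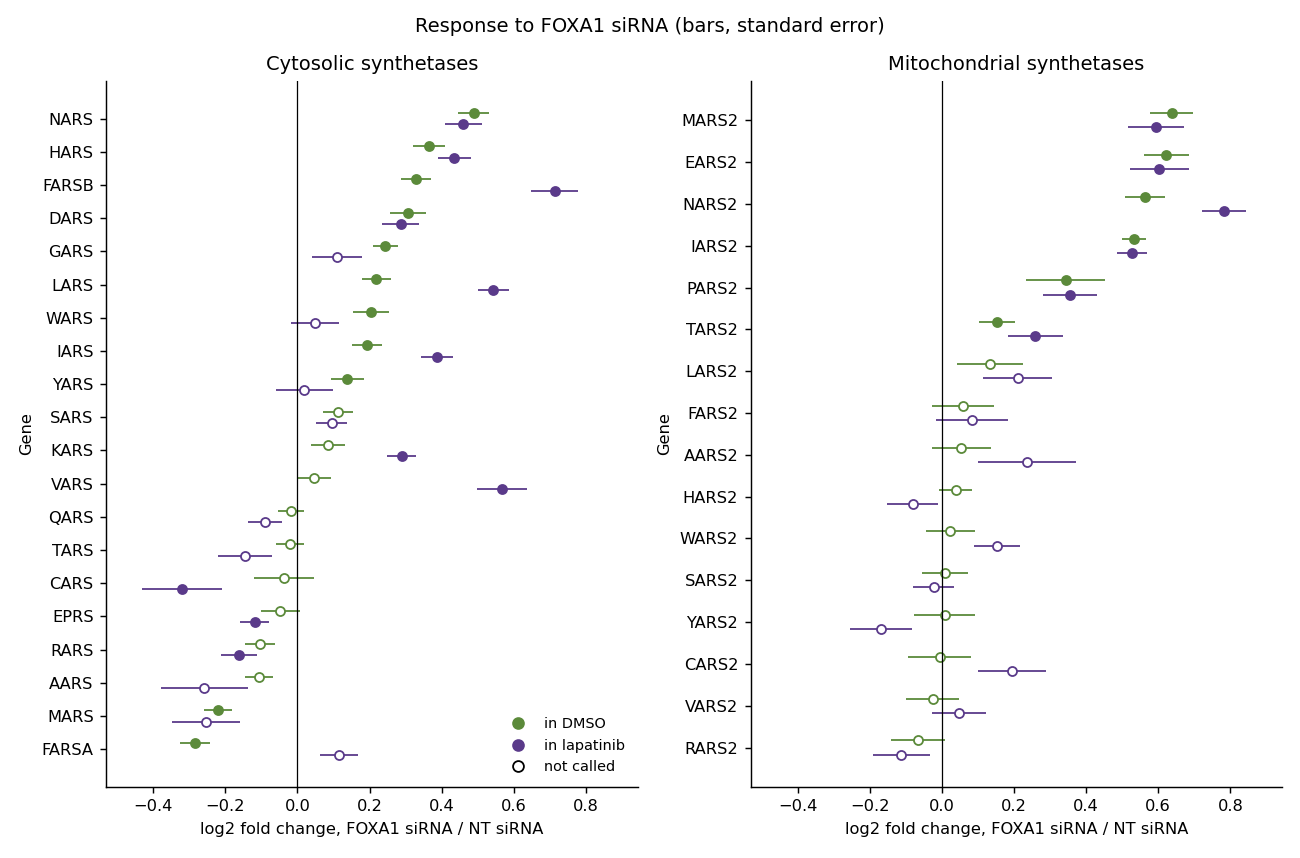
Log2 fold change of FOXA1 siRNA over NT siRNA for cytosolic (left) and mitochondrial (right) synthetases, in DMSO (green) and lapatinib (purple). Bars are standard errors, filled dots are calls at an adjusted p under 0.05 and open dots were not called. All filled mitochondrial dots lie above 0, up to 0.78 for NARS2, and the cytosolic dots reach from -0.32 (CARS) to 0.71 (FARSB).

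Summed over members, the cytosolic set had 2560, 2615 and 2562 TPM with NT siRNA and DMSO, 2274, 2297 and 2162 with NT siRNA and lapatinib, 2785, 2749.7 and 2749 with FOXA1 siRNA and DMSO, and 2441, 2495 and 2371 with FOXA1 siRNA and lapatinib. The mitochondrial set had 664, 651 and 663 TPM, then 588, 556 and 570.4, then 810.2, 779 and 806, and finally 743, 696 and 729.5 TPM in the same order of groups. Both sums were lower in lapatinib and higher with FOXA1 siRNA. TPM of all genes in a library came to 924228 to 939340, 896833 to 905628, 922405.5 to 931808.5 and 902390 to 914469 in the same order of groups. The cytosolic and mitochondrial sums were not scaled to these totals, which were also lower in lapatinib. The ratio of the sums was 3.79 to 4.13 in the 6 NT siRNA libraries and 3.25 to 3.58 in the 6 FOXA1 siRNA libraries. IARS2 made up 32.8% to 43.2% of the mitochondrial sum, and its part in that gap was not tested. IARS2 was also left out, a choice made after seeing the data. The ratio was then 5.74 to 6.67 with NT siRNA and 5.57 to 6.31 with FOXA1 siRNA. These ranges, which hold DMSO and lapatinib libraries together, overlapped. By replicate number, the ratio in DMSO was 5.74, 6.10 and 5.75 with NT siRNA and 5.70, 5.87 and 5.57 with FOXA1 siRNA. In lapatinib the ratio was 6.11, 6.67 and 5.90 against 5.70, 6.31 and 5.62, lower with FOXA1 siRNA at each number as in DMSO. An exact permutation test of 3 libraries against 3 cannot give a two-sided p below 0.1, and no such p is given for these sums.

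The 13 pairs of cytosolic and mitochondrial enzymes for the same amino acid were compared as the ratio of their TPM within a library. CARS to CARS2 had ratios of 0.533, 0.756 and 0.551 with NT siRNA and DMSO and 1.43, 1.97 and 1.35 with lapatinib. The log2 ratio of the cysteine enzymes changed by 1.36 ± 0.23 (SE), so the order of both levels turned. VARS to VARS2, for valine, had 2.80, 3.18 and 2.69 in DMSO and 1.51, 1.44 and 1.52 in lapatinib, a change of -0.95 ± 0.077. IARS to IARS2 had 0.605, 0.593 and 0.617 in DMSO and 0.362, 0.358 and 0.358 in lapatinib, a change of -0.75 ± 0.017. IARS2 was thus above IARS in every library, and more so with lapatinib. HARS to HARS2 had 1.85, 1.85 and 1.86 in DMSO and 1.20, 1.36 and 1.15 in lapatinib, a change of -0.58 ± 0.073. AARS to AARS2 had 10.2, 10.7 and 9.95 and 14.9, 24.6 and 13.8, the second set being led by replicate 2, a change of 0.74 ± 0.26. MARS to MARS2 overlapped between DMSO and lapatinib, a change of 0.15 ± 0.15, and both genes fell.

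Between FOXA1 siRNA and NT siRNA, other ratios stood apart. MARS to MARS2 had ratios of 7.31, 6.37 and 6.52 with NT siRNA and 3.79, 3.73 and 3.59 with FOXA1 siRNA in DMSO, a change of -0.86 ± 0.065 as MARS fell and MARS2 rose. In lapatinib the same pair changed by -0.85 ± 0.17. HARS to HARS2 changed by 0.33 ± 0.029 in DMSO and by 0.53 ± 0.074 in lapatinib, with no overlap in either. IARS to IARS2 changed by -0.33 ± 0.024 in DMSO and -0.16 ± 0.025 in lapatinib. The exact permutation p of each pair described without overlap was 0.1, the smallest that 3 against 3 allow.

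**Figure D5:**
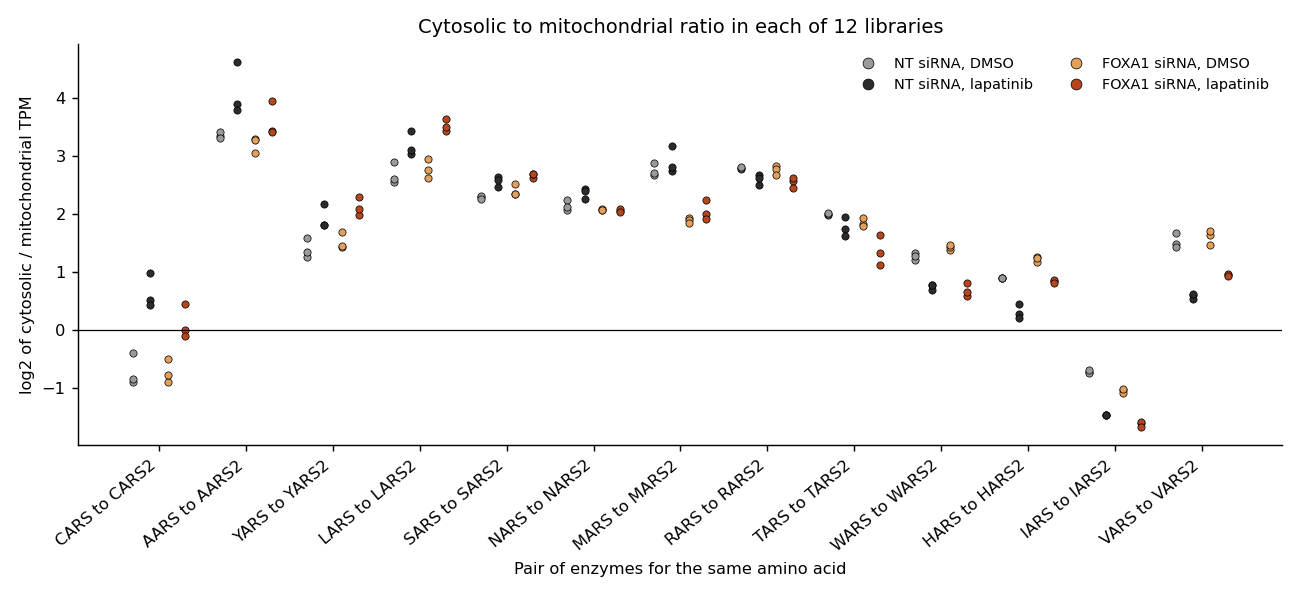
Log2 of the cytosolic over mitochondrial TPM in each library for the 13 pairs, ordered by their change with lapatinib under NT siRNA. Each dot is a library, colours give the 4 groups, and the line at 0 marks equal levels. CARS to CARS2 moves from below the line in DMSO to above it in NT lapatinib, IARS to IARS2 stays below it, and AARS to AARS2 has a high replicate 2 in lapatinib.

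Proteins that work with the synthetases were taken from lists by function, and their calls stand beside the shares of all genes called, 30.5% higher and 29.2% lower with lapatinib under NT siRNA, 21.9% and 21.3% with FOXA1 siRNA in DMSO, and 22.7% and 22.2% with FOXA1 siRNA in lapatinib. Of the 3 scaffold proteins of the multisynthetase complex, EEF1E1 fell with lapatinib under NT siRNA (log2 fold change -0.76 ± 0.084, adjusted p = 0.000101) and AIMP1 and AIMP2 were not called. FOXA1 siRNA raised AIMP1 in DMSO (log2 fold change 0.28 ± 0.042, adjusted p = 0.00117) and both AIMP1 and AIMP2 in lapatinib (0.33 and 0.46 log2). Of the 4 genes that finish mitochondrial glutamine and initiator tRNA, 2 fell with lapatinib under NT siRNA, QRSL1 (-0.18) and MTFMT (-0.28). FOXA1 siRNA raised 2 of the 4 in DMSO and in lapatinib, QRSL1 (0.40 and 0.51) and PET112L, the GATB subunit (0.42 and 0.34). With FOXA1 siRNA, lapatinib raised 1 of the 3 scaffold genes, lowered 1 and called 0 of these 4 genes. The shares of all genes in that comparison were 29.0% higher and 29.1% lower.

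Elongation factors, which carry charged tRNA to the ribosome and move it, are given by compartment. Of 6 cytosolic factors, 3 rose and 0 fell with lapatinib under NT siRNA (0 lower at an unadjusted p under 0.05 and 0 with DESeq2), namely EEF1A1 (log2 fold change 0.32 ± 0.052, adjusted p = 0.000948), EEF2 (log2 fold change 0.48 ± 0.050, adjusted p = 6.9e-05) and EEF1G (0.13). Of 4 mitochondrial factors, 2 fell, GFM1 (log2 fold change -0.43 ± 0.084, adjusted p = 0.00237) and TUFM (-0.29). FOXA1 siRNA in DMSO raised 3 of the 4 mitochondrial factors, GFM1 (0.22), GFM2 (0.33) and TSFM (0.18), and lowered 2 of the 6 cytosolic ones. With FOXA1 siRNA, lapatinib raised 3 of the 6 cytosolic factors and lowered 3 of the 4 mitochondrial factors.

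The amino acid response list, 20 genes of the ATF4 program, moved both ways. With lapatinib under NT siRNA 6 of its genes rose and 7 fell, beside 30.5% and 29.2% of all genes, with a median of 0.06. ATF4 rose (log2 fold change 0.61 ± 0.11, adjusted p = 0.00152), as did CHAC1 (4.01-fold), DDIT3 (log2 fold change 0.96), NUPR1 (1.88), SLC7A11, the cystine carrier (1.02), and ATF3 (0.61). PSAT1 (-1.32), PHGDH (-0.80) and SHMT2 (-0.58), enzymes of serine and glycine synthesis, fell. ASNS, which makes asparagine, was not called (log2 fold change 0.11 ± 0.074, adjusted p = 0.218). FOXA1 siRNA in DMSO raised 4 and lowered 8 of the list, ATF4 among the latter (log2 fold change -0.28 ± 0.077, adjusted p = 0.0218) and ASNS among the former (log2 fold change 0.31 ± 0.050, adjusted p = 0.00172). With FOXA1 siRNA, lapatinib raised 6 and lowered 4, where 29.0% and 29.1% of all genes were called. Of the 8 interferon response genes, a list held because WARS is a known interferon target, 3 rose and 1 fell with lapatinib under NT siRNA, while WARS fell. Under FOXA1 siRNA, lapatinib raised 5 of the 8 and lowered 0, and WARS fell again.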

How the data were processed

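RNA of 12 SKBR-3 samples (4 groups of 3) was sequenced, and 1 gene table per sample was deposited. The authors' tables held expected counts and TPM per gene. They also held FPKM and a normalized signal that the authors made by upper-quartile scaling of the expected counts, neither of which was tested. The submitters' processing notes name RSEM, DESeq, DESeq2 1.12.3 and R 3.2.2, whereas the study's methods name STAR and Salmon, and how these relate is not given in the sources used here. The files hold no coordinates, so the genome build behind them was not settled, and the labels name both an unstranded and a stranded library kit. Gene positions and promoters are from RefSeq (GRCh38.p14).

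Expected counts were rounded to whole numbers. The 29 rows with no gene symbol, 0.0314% to 0.0459% of counts, stayed in the fits and in the shares of all genes wherever they passed the count filter. Genes reaching 10 counts in 1 or more samples of a fit were tested with edgeR 4.0.16 in R 4.3.3 (TMM normalization, quasi-likelihood F test, two-sided), with Benjamini-Hochberg adjustment over all genes tested and a call at an adjusted p under 0.05. Each comparison was fitted on its 6 samples and the interaction on all 12. Standard errors were derived from the fold change and its F value. Normalized counts are rounded counts scaled by TMM library size, and TPM was used for levels between genes. All changes are relative, under TMM to the bulk of genes in the libraries compared and for TPM to the RNA measured in a library. Depth limits the precision, and the spread between replicates includes counting error. DESeq2 1.42.0 was an alternative. Tables were made with pandas 2.3.3 in Python 3.11.15, with numpy 2.4.6 for arithmetic, scipy 1.17.1 for exact permutation tests and matplotlib 3.10.9 for plots. The fits were run on simulated counts with known changes. Those counts were drawn independently for each library with no effect of replicate number, so they do not bear on how the replicate 2 libraries affect the calls.

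Alternatives were DESeq2, other normalizations and filters, a fold minimum, a single model of all 12 samples, a replicate block, leaving out KARS and GARS, and leaving out each library. Leaving out all replicate 2 libraries, and IARS2 from the summed TPM, was added after seeing the data. Samples of the same replicate number deviated together (correlation over 12170 genes 0.241 to 0.624 in 18 pairs, mean 0.390). The mean of -0.184 for different numbers follows from centring each group on its own mean and adds no support. The numbers thus appear to pair the samples, as read from the data, which the labels do not state. The main calls, the standard errors of the ratios and the permutation p leave this pairing out. Only the fits with the replicate block take it in. Values in every sample are given for members called with a log2 fold change of at least 1, the 3 called members with the largest change per set and direction in each comparison, those called for the interaction, KARS, GARS, QARS, HARS and HARS2. Of the leukocyte markers, 1 is not reported here. Members and lists were chosen with earlier results of these data known.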

Additional observations from a re-analysis of the deposited data

Results flagged for a closer look

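The lapatinib response differed between FOXA1 siRNA and NT siRNA for 5 of 20 cytosolic members, against 3.99% of 14012 genes with a positive difference, by edgeR's quasi-likelihood test of the interaction over 12 libraries. The difference, as log2 fold change with FOXA1 siRNA minus that with NT siRNA, was 0.54 ± 0.087, adjusted p = 0.00396 for VARS. It was 0.42 ± 0.062, adjusted p = 0.00269 for FARSA and 0.40 ± 0.072, adjusted p = 0.00695 for FARSB, the subunits of the phenylalanine enzyme. For LARS it was 0.34 ± 0.055, adjusted p = 0.00381, with a fall under NT siRNA and a rise under FOXA1 siRNA. For KARS it was 0.23 ± 0.061, adjusted p = 0.0453, and this call was lost in 11 of 12 fits that left out 1 library.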

How the results depend on the processing

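Requiring a log2 fold change of at least 1 left 2 cytosolic members lower with lapatinib under NT siRNA, FARSB and VARS, and 0 in every other set, direction and pairwise comparison. With no filter, the cytosolic median for lapatinib under NT siRNA was -0.23. Upper-quartile scaling gave 1 cytosolic member lower with FOXA1 siRNA in lapatinib. In a single model of 12 samples the mitochondrial median for FOXA1 siRNA in DMSO was 0.0420.

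With the replicate number as a block, 4 cytosolic members were lower with FOXA1 siRNA in DMSO. In lapatinib 7 cytosolic members were lower, 10 mitochondrial members higher and 1 lower, and the interaction was negative for 1 cytosolic and positive for 2 mitochondrial members. The block changed no other call than those given with its p in the report.

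Without the replicate 2 libraries, a choice made after seeing the data, 2 mitochondrial members were higher with lapatinib under NT siRNA, 4 cytosolic members were lower with FOXA1 siRNA in DMSO and 6 in lapatinib, the mitochondrial median in DMSO was 0.0437, and the interaction was positive for 1 mitochondrial member. When single libraries were left out, mitochondrial members higher with lapatinib numbered 0 to 2 under NT siRNA and 1 to 3 under FOXA1 siRNA, and cytosolic members lower with FOXA1 siRNA in lapatinib numbered 0 to 5. The mitochondrial median for FOXA1 siRNA ran from 0.0552 to 0.0698 in DMSO and from 0.12 to 0.26 in lapatinib. The causes were not tested. No call changed sign under these alternatives, whereas fold changes near 0 that were not called did in some fits without 1 library. With 3 samples a group, small changes near the threshold depend on single libraries.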
